A study of Mus musculus with 9 samples.

Results

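The replication-dependent histone genes are the clustered genes that make the H1, H2A, H2B, H3 and H4 proteins of newly replicated chromatin. They were taken here as the protein-coding rows of the deposited gene table with a symbol beginning Hist1h to Hist4h that lie on chromosome 3, 11 or 13. These were 67 of 35275 genes, with 6 of class H1, 19 of H2A, 18 of H2B, 12 of H3 and 12 of H4, of which 55 lie on chromosome 13, 10 on chromosome 3 and 2 on chromosome 11. Their reads were counted in mouse embryonic fibroblasts (MEFs) of the C57Bl/6 strain, with no allele or transgene given in the labels. Cells stayed in iso-osmolar medium or were held for 3 h in medium with 200 mM sucrose (500 mOsm in all) or 300 mM sucrose (600 mOsm in all), and each of the 3 treatments gave 3 libraries. No source used here says whether the 3 libraries of a treatment came from separate cultures, so the p-values measure the spread between these libraries, which may be technical.

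A replication-dependent histone gene is short, has no intron in its main form and is transcribed mostly in S phase, when new DNA must be packed. Its mRNA usually ends just after a conserved stem-loop instead of a poly(A) tail, and the stem-loop is bound by SLBP, which carries the mRNA through processing, translation and decay. Forms that read past the stem-loop and receive a tail are also known, mostly in cells that have stopped dividing. The libraries were made from RNA bound by poly-T beads, so every value below is about histone reads in that fraction, and the share of the histone mRNA of the cells that was bound was not measured. In bulk RNA, fewer cells that express a gene and less RNA per cell cannot be told apart.

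The libraries held 21716042 to 26740832 counted reads, and histone genes took 2953 to 5552 of them. A test was run across 13082 genes that passed a filter on low counts, and 54 of the 67 histone genes were among them. The filter kept a gene at 0.411 CPM (counts scaled to a fixed library size) or more in at least 3 libraries. Of the 54, 36 were at that level in all 3 iso-osmolar libraries and 18 passed only with the help of treated libraries. Of these 18, 6 were at that level in all 3 libraries of 600 mOsm and of no other group. Those 18 had to be higher in a treated group, so counts over the 54 are a description. The p-values of these 18 against iso-osmolar cells are a description too. The tested histone genes rested on few reads, at a median of 1.55 CPM over the 9 libraries, and 18 of them were under 1 CPM. A limit of 3 reads corresponded to 0.113 to 0.137 CPM in a library. The 8 fibroblast markers were all tested and summed to 20162 to 21362 CPM in the iso-osmolar libraries, 20221 to 21085 CPM at 500 mOsm and 22824 to 24553 CPM at 600 mOsm. The sum rests on Col1a1, Fn1, Vim and Col1a2, while Pdgfra was lower at 500 and 600 mOsm, with log2 fold changes of -0.70 ± 0.082 (SE, adjusted p = 3.21e-05) and -0.68 ± 0.082 (SE, adjusted p = 4.72e-05), and so was Col3a1, at -1.27 ± 0.091 (SE, adjusted p = 4.21e-07) and -0.65 ± 0.088 (SE, adjusted p = 0.000124). Single markers of other cell types were higher at 500 mOsm, where 5 epithelial markers summed to 3.47 to 3.69 CPM against 0.0455 to 0.164 CPM. The 4 endothelial markers summed to 0.778 to 0.90, 12 to 13.4 and 2.13 to 3.18 CPM in the order iso-osmolar, 500 and 600 mOsm, and the haematopoietic markers, 4 of 5 in the table, to 0.983 to 1.96, 7.09 to 8.20 and 1.86 to 2.28 CPM. These sums rest on few genes: Cdh1 gave 3.47 ± 0.207 CPM at 500 mOsm (SD, n = 3), Pecam1 11.1 ± 0.732 and Cd79a 3.94 ± 0.235. Cdh5 stood at 0.554 ± 0.0954 CPM in iso-osmolar cells and 0.568 ± 0.0979 at 500 mOsm, Cd68 was at 1.28 ± 0.362 CPM in iso-osmolar cells, and Esrp1 and Krt5 were at 0 in every library. The part of other cell types in the histone values was not tested.

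The stem-loop is printed first because it is what these mRNAs share and what sets their usual end. A search of the GENCODE M21 transcripts (GRCm38, the same assembly as mm10) with the histone stem-loop found it in 45 of the 67 genes, as 8 different 16-base stem-loops. The commonest was carried by 26 genes. Only bases of annotated transcripts were searched, so the other genes may hold a stem-loop past the end of their transcripts. All 34 genes of classes H1, H2A, H2B and H3 with a stem-loop had the stem GGCTCT, and none of the 11 H4 genes had it: 9 had GGCCCT and 2 had GGTCCT. The sites below are 5 bases before and after the stem-loop, in mm10 coordinates, with the stem-loop in capitals. They pair genes of 1 class whose reads differed in how they moved (Hist1h1c and Hist1h1e, Hist1h4i and Hist2h4), with an H2A gene that fell, an H2B gene and an H3 gene.
Hist1h1c, chr13:23739507-23739532, plus strand: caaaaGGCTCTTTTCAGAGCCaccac
Hist1h1e, chr13:23621777-23621802, minus strand: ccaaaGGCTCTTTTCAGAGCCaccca
Hist1h2ao, chr13:21810893-21810918, plus strand: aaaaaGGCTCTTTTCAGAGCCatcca
Hist1h2bg, chr13:23571838-23571863, plus strand: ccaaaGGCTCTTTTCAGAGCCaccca
Hist1h3c, chr13:23745042-23745067, minus strand: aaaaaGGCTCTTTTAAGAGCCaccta
Hist1h4i, chr13:22040961-22040986, minus strand: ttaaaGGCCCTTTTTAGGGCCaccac
Hist2h4, chr3:96262934-96262959, minus strand: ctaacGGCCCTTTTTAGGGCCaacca
Hist1h1c and Hist1h1e held the same 16 bases, and so did Hist1h4i and Hist2h4, although their reads moved differently.

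RefSeq promoters (GRCm38.p6, from 250 bases before to 50 after the start) were found for 59 of the 67 genes, all with the start within 100 bases of the deposited one. They were searched on both strands for letters known from histone promoters, and matches of different letters may share bases at their ends. Some H2A and H2B genes start head to head, such as Hist1h2ae and Hist1h2bg, so their windows overlap. A match within such an overlap counts for both genes. The octamer ATTTGCAT, the site of Oct-1 in H2B promoters, stood in 6 of 16 H2B and 7 of 16 H2A promoters and in none of the H1, H3 or H4 promoters, against 1.74% of 32851 promoters of the same length. The H1 box AAACACA stood in 5 of 6 H1 promoters against 7.18% of all promoters. TATAAA stood in 57.6% of the 59 histone promoters against 13.6% of all, CCAAT in 86.4% against 37.4%, and GGTCC, part of the H4 site II, in 10 of 11 H4 promoters against 45.5%. The 250 bases upstream of the start are shown for Hist1h1c and Hist1h1e with the H1 box in capitals, because the genes moved differently, and for Hist2h2bb with the octamer in capitals, as an H2B gene of chromosome 3 that rose.
Hist1h1c, chr13:23738557-23738806, plus strand: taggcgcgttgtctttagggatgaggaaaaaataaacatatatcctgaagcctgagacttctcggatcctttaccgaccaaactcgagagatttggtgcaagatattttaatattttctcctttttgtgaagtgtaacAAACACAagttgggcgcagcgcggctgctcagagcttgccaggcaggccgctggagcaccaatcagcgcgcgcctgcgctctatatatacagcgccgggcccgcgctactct
Hist1h1e, chr13:23622559-23622808, minus strand: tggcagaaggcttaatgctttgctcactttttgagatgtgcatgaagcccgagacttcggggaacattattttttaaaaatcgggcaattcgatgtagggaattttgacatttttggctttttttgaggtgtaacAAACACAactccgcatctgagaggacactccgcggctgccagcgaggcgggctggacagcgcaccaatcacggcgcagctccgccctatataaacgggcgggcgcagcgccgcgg
Hist2h2bb, chr3:96269450-96269699, plus strand: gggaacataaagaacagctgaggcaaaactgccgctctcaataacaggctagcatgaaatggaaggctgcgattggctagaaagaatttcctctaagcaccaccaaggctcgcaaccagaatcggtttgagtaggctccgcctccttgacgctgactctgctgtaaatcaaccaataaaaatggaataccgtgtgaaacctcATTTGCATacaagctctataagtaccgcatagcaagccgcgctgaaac
In both H1 promoters the H1 box is followed downstream by a CCAAT match. A match of letters is a description of this window and says nothing of binding in these cells.

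Taken 1 comparison at a time, most tested genes of every class passed as higher at 600 mOsm, and 3 H2A genes fell against iso-osmolar cells. All 67 genes together took 0.0140% ± 0.000421 (SD, n = 3) of the reads in iso-osmolar cells, 0.0124% ± 0.000169 at 500 mOsm and 0.0206% ± 0.000296 at 600 mOsm. As summed CPM the libraries stood at 134, 142 and 143 in iso-osmolar cells, at 125, 126 and 121 at 500 mOsm and at 206, 202 and 215 at 600 mOsm. The 600 mOsm libraries were above all others and the 500 mOsm libraries were below all others.

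At 600 mOsm against iso-osmolar, 40 of the 54 tested histone genes were higher and 3 were lower by edgeR's quasi-likelihood test at an adjusted p under 0.05, with a median log2 fold change of 1.22. Over all genes tested, 15.1% were higher and 20% were lower, with a median of 0.0075. Among the 3923 other genes with a mean under 5 CPM, 9.56% were higher and 11% were lower. Of the 36 histone genes that met the filter's level in iso-osmolar cells alone, 25 were higher and 3 lower, at a median of 0.80.

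At 600 against 500 mOsm, 40 were higher and none was lower, with a median of 0.92. No lower gene was found at an unadjusted p under 0.05 or by DESeq2 either, and 51 of the 54 values were above 0. The share of all genes tested was 11.9% higher and 17.2% lower, and among the other genes under 5 CPM it was 5.91% higher and 17.4% lower. At 500 mOsm against iso-osmolar, 11 were higher and 4 lower, with a median of 0.28. Without iso-osmolar replicate 1, 7 were higher. Of the 36 histone genes at the filter's level in iso-osmolar cells, 6 were higher and 4 lower at 500 mOsm, at a median of 0.15. For 600 against 500 mOsm the same 36 gave 29 higher and none lower, at a median of 0.86. The count of 11 stood beside 13.2% higher and 14.8% lower among all genes tested, and 19.5% higher and 10.4% lower among other genes under 5 CPM, near the histone share. These comparisons share libraries and are given side by side.

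**Figure D1:**
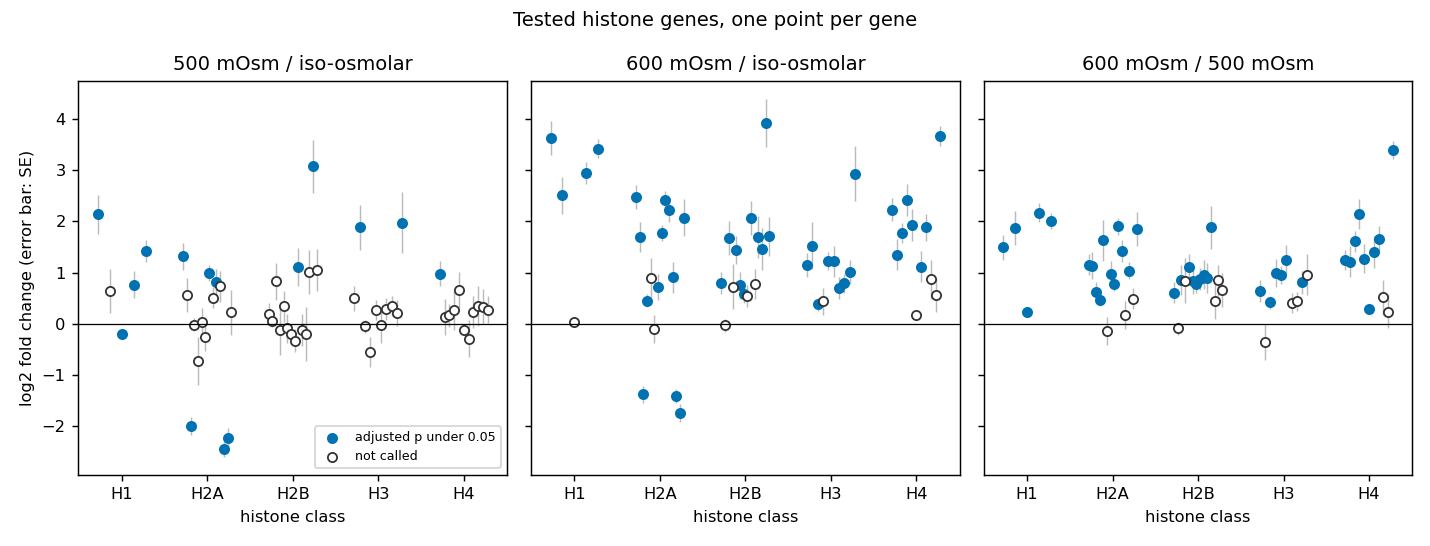
Log2 fold change (y axis, with SE bars) of each of the 54 tested histone genes, by class (x axis), in the 3 comparisons. Filled points passed an adjusted p of 0.05. At 600 mOsm most points lie above 0, and the 3 filled points below 0 are H2A genes.

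The linker histones of class H1, which bind the DNA between nucleosomes, divided into 1 abundant gene that moved little and 4 low genes that rose steeply at 600 mOsm. Of the 5 tested, 3 were higher and 1 was lower at 500 mOsm, 4 were higher at 600 mOsm, and all 5 were higher at 600 than at 500 mOsm. Rises over all genes made up 13.2%, 15.1% and 11.9% in that order. Just 3 of the 5 stood at the filter's level in each iso-osmolar library. These 3 gave 2 rises and 1 fall (500 mOsm), 2 rises (600 mOsm) and 3 rises (between the treatments). The abundant gene was Hist1h1c (chr13:23738808-23740367, plus strand, 1560 bases), at 31.7, 33.9 and 31.8 CPM in the iso-osmolar libraries, 28.9, 28.7 and 27.1 CPM at 500 mOsm and 32.9, 33.1 and 33.5 CPM at 600 mOsm. Its libraries overlapped between iso-osmolar and 600 mOsm cells and were lowest at 500 mOsm. The log2 fold change of Hist1h1c was -0.20 ± 0.062 (SE, adjusted p = 0.0273) at 500 mOsm and 0.031 ± 0.062 (SE, adjusted p = 0.732) at 600 mOsm, and the sign of the second turned with offsets for gene length. The call at 500 mOsm was lost with no filter on low counts (-0.22) and without iso-osmolar replicate 2 or 3 or 500 mOsm replicate 3, where the values ran from -0.22 to -0.17.

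Hist1h1e (chr13:23621755-23622502, minus strand, 748 bases) was at 1.0, 0.696 and 1.35 CPM in the iso-osmolar libraries, 2.50, 2.68 and 2.97 CPM at 500 mOsm and 10.5, 10.0 and 12.3 CPM at 600 mOsm. The 3 groups did not overlap. Against iso-osmolar cells it rose by 1.42 ± 0.21 (SE, adjusted p = 0.000238) at 500 mOsm, 3.42 ± 0.19 (SE, adjusted p = 5.48e-08) at 600 mOsm and 2.01 ± 0.16 (SE, adjusted p = 1.33e-06) for 600 against 500 mOsm. Hist1h1d (chr13:23555087-23555830, plus strand, 744 bases) stood at 0.546, 0.656 and 0.613 CPM in the iso-osmolar libraries, 0.943, 1.09 and 1.07 CPM at 500 mOsm and 4.31, 3.90 and 5.80 CPM at 600 mOsm. Its groups were likewise in order without overlap, with log2 fold changes of 0.77 ± 0.26 (SE, adjusted p = 0.0455) at 500 mOsm and 2.94 ± 0.21 (SE, adjusted p = 5.93e-07) at 600 mOsm. The call at 500 mOsm was lost when any 1 iso-osmolar or 500 mOsm library or 600 mOsm replicate 1 was left out, at values of 0.70 to 0.83. It was also lost by DESeq2 (0.77), with offsets for gene length (0.65) and with offsets for length and GC (0.76).

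Hist1h1a (chr13:23763717-23764358, plus strand, 642 bases) was at 0.364, 0.328 and 0.245 CPM in the iso-osmolar libraries, 0.902, 1.17 and 2.06 CPM at 500 mOsm and 3.22, 3.94 and 4.52 CPM at 600 mOsm, again in 3 separate groups. Its log2 fold change was 2.14 ± 0.38 (SE, adjusted p = 0.000921) at 500 mOsm and 3.63 ± 0.33 (SE, adjusted p = 4.44e-06) at 600 mOsm. Against iso-osmolar cells, Hist1h1b had a log2 fold change of 0.64 ± 0.43 (SE, adjusted p = 0.317) at 500 mOsm and 2.51 ± 0.36 (SE, adjusted p = 0.000208) at 600 mOsm. Hist1h1a and Hist1h1b passed the filter only with the help of treated libraries, so their p-values against iso-osmolar cells are a description. Without Hist1h1c, the H1 genes summed to 2.56 ± 0.572 CPM (SD, n = 3) in iso-osmolar cells, 6.10 ± 1.05 at 500 mOsm and 23.1 ± 3.29 at 600 mOsm. With it the sums were 35.0 ± 0.787, 34.3 ± 0.695 and 56.3 ± 3.54 CPM. None of the 5 tested H1 genes shared a 150-base window, the length of a read, with another gene, taking M21 transcripts without a mismatch. Hist1h1t, the testis form, had 7 reads in all 9 libraries and was not tested.

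**Figure D2:**
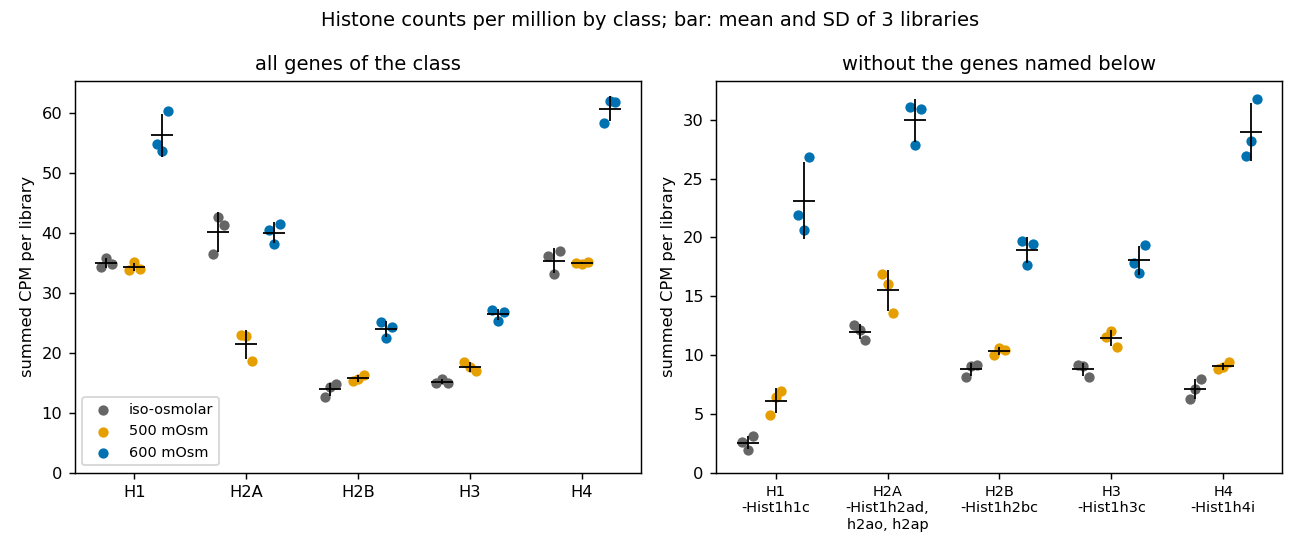
Summed CPM of each histone class (y axis) in every library, by class (x axis) and treatment (colour), with the mean and SD of 3 libraries. The left panel holds all genes of a class, and the right panel leaves out the named abundant genes; without Hist1h1c the H1 sum went from 2.56 to 6.10 and 23.1 CPM.

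Class H2A, which pairs with H2B in the nucleosome core, held 3 of the 4 histone genes called lower in any comparison, the other being Hist1h1c at 500 mOsm. They were Hist1h2ao, Hist1h2ap and Hist1h2ad, the H2A genes with the highest iso-osmolar levels. Hist1h2ao (chr13:21810465-21810944, plus strand, 480 bases) was at 11.1, 13.2 and 12.9 CPM in the iso-osmolar libraries, 2.30, 2.71 and 1.79 CPM at 500 mOsm and 4.19, 4.75 and 5.07 CPM at 600 mOsm. The iso-osmolar libraries were far above all others, and the 600 mOsm libraries were above the 500 mOsm ones. The log2 fold change of Hist1h2ao was -2.45 ± 0.15 (SE, adjusted p = 1.04e-07) at 500 mOsm, -1.41 ± 0.14 (SE, adjusted p = 7.35e-06) at 600 mOsm and 1.04 ± 0.16 (SE, adjusted p = 0.00036) for 600 against 500 mOsm.

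Hist1h2ap (chr13:21833026-21833507, minus strand, 482 bases) was at 6.60, 7.78 and 8.71 CPM in the iso-osmolar libraries, 1.64, 2.07 and 1.22 CPM at 500 mOsm and 2.47, 2.42 and 2.05 CPM at 600 mOsm. The log2 fold change was -2.22 ± 0.18 (SE, adjusted p = 1.35e-06) at 500 mOsm and -1.74 ± 0.17 (SE, adjusted p = 9.8e-06) at 600 mOsm. The same order held for Hist1h2ad (chr13:23574470-23574932, plus strand, 463 bases), at 6.19, 9.63 and 8.46 CPM in the iso-osmolar libraries, 2.13, 1.92 and 2.06 CPM at 500 mOsm and 2.72, 3.18 and 3.48 CPM at 600 mOsm. Its log2 fold change was -1.99 ± 0.18 (SE, adjusted p = 2.57e-06) at 500 mOsm and -1.37 ± 0.17 (SE, adjusted p = 4.82e-05) at 600 mOsm. In all 3 genes every iso-osmolar library was above every treated library.

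The values of these 3 genes carry a limit of sequence. Of their 150-base windows, 91.5% in Hist1h2ao, 91.0% in Hist1h2ap and 79.0% in Hist1h2ad were found without a mismatch in another gene, among them other H2A genes of chromosome 13. How the authors' counting treated reads that fit several genes is not given in the sources used here, so the split of reads between these copies is uncertain. Hist1h2ai, with 86.1% of its windows shared, rose. It was at 1.18, 1.27 and 1.31 CPM in the iso-osmolar libraries, 2.21, 2.49 and 2.78 CPM at 500 mOsm and 4.10, 4.57 and 4.25 CPM at 600 mOsm, with log2 fold changes of 0.99 ± 0.16 (SE, adjusted p = 0.000503) at 500 mOsm and 1.77 ± 0.15 (SE, adjusted p = 2.89e-06) at 600 mOsm.

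Most of the other H2A genes were higher at 600 mOsm. Over all 14 tested H2A genes, the 500 mOsm comparison called 3 up and 3 down, the 600 mOsm comparison 9 up and 3 down, and 600 against 500 mOsm 11 up and none down. Shares over all genes were 13.2% up and 14.8% down at 500 mOsm, 15.1% and 20% at 600 mOsm, and 11.9% up between them. The filter's level was met in all iso-osmolar libraries by 11 of the 14. These gave 3 up and 3 down at 500 mOsm, and 7 up and 3 down at 600 mOsm. Hist1h2ak (chr13:21753435-21753827, minus strand, 393 bases), which shared no window with another gene, was at 1.05, 1.07 and 0.818 CPM in the iso-osmolar libraries, 1.52, 1.21 and 1.45 CPM at 500 mOsm and 4.98, 4.79 and 5.84 CPM at 600 mOsm. The 600 mOsm libraries stood apart from all others, and the log2 fold change was 0.51 ± 0.20 (SE, adjusted p = 0.0848) at 500 mOsm, 2.41 ± 0.17 (SE, adjusted p = 5.23e-07) at 600 mOsm and 1.90 ± 0.16 (SE, adjusted p = 2.56e-06) between the 2 treatments. Hist1h2ae was at 3.51, 3.65 and 4.29 CPM in the iso-osmolar libraries, 3.89, 4.0 and 3.43 CPM at 500 mOsm and 5.15, 4.93 and 5.57 CPM at 600 mOsm. Its rise at 600 mOsm was small, at 0.45 ± 0.13 (SE, adjusted p = 0.0166), and was lost without iso-osmolar replicate 1 or 2 or 600 mOsm replicate 3 (values of 0.39 to 0.42) and with offsets for gene length (0.30). At 500 mOsm the value was -0.018 ± 0.13 (SE, adjusted p = 0.941), which turned above 0 without iso-osmolar replicate 3 or 500 mOsm replicate 3.

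Hist1h2ag did not pass in any comparison, at 1.82, 1.60 and 1.43 CPM in the iso-osmolar libraries, 2.13, 1.77 and 1.07 CPM at 500 mOsm and 2.01, 1.25 and 1.24 CPM at 600 mOsm, and its groups overlapped. Its log2 values against iso-osmolar cells, 0.034 ± 0.27 (SE, adjusted p = 0.945) at 500 mOsm and -0.10 ± 0.28 (SE, adjusted p = 0.801) at 600 mOsm, changed sign as single libraries were left out. Hist1h2ab and Hist1h2al were, with Hist1h2ai, the H2A genes higher at 500 mOsm. Hist1h2ab rose by 1.32 ± 0.27 (SE, adjusted p = 0.00217) at 500 mOsm and 2.48 ± 0.24 (SE, adjusted p = 7.17e-06) at 600 mOsm. Hist1h2al, which shared no window, rose by 0.81 ± 0.27 (SE, adjusted p = 0.0413) and 2.23 ± 0.24 (SE, adjusted p = 1.73e-05). The class as a whole summed to 40.2 ± 3.32 CPM (SD, n = 3) in iso-osmolar cells, 21.4 ± 2.41 at 500 mOsm and 40.1 ± 1.71 at 600 mOsm. Without the 3 genes that fell, the other 16 summed to 12 ± 0.631, 15.5 ± 1.70 and 30.0 ± 1.83 CPM. These 3 genes were left out because they fell, so the second set of sums is a description.

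In class H2B no gene passed as lower, and the most abundant gene passed in no comparison. Of the 14 tested, 2 were higher at 500 mOsm, 10 at 600 mOsm, and 9 at 600 against 500 mOsm. All genes tested gave 13.2%, 15.1% and 11.9% up in that order, so the count at 500 mOsm is near the background. Only 7 of these 14 met the filter's level in every iso-osmolar library. For those 7, calls of a rise numbered 0 (500 mOsm), 4 (600 mOsm) and 6 (between the treatments). Hist1h2bc (chr13:23684199-23692488, plus strand, 736 bases over its exons) was at 4.55, 5.20 and 5.68 CPM in the iso-osmolar libraries, 5.25, 5.01 and 5.87 CPM at 500 mOsm and 5.44, 4.88 and 4.83 CPM at 600 mOsm, with overlapping groups. Its log2 fold change was 0.061 ± 0.12 (SE, adjusted p = 0.767) at 500 mOsm and -0.029 ± 0.13 (SE, adjusted p = 0.877) at 600 mOsm, and both signs turned as single libraries were left out. Without it the H2B genes summed to 8.77 ± 0.541 CPM in iso-osmolar cells, 10.3 ± 0.319 at 500 mOsm and 18.9 ± 1.11 at 600 mOsm (SD, n = 3).

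Hist1h2bk was at 2.28, 1.56 and 2.09 CPM in the iso-osmolar libraries, 1.19, 2.04 and 1.45 CPM at 500 mOsm and 3.01, 2.60 and 2.98 CPM at 600 mOsm. At 500 mOsm it stood at -0.33 ± 0.22 (SE, adjusted p = 0.312) against iso-osmolar cells, and passed as lower with offsets for length and GC (-0.58). It was higher at 600 than at 500 mOsm by 0.87 ± 0.21 (SE, adjusted p = 0.0078), while its value against iso-osmolar cells was 0.54 ± 0.21 (SE, adjusted p = 0.0589). Hist1h2bj was at 2.00, 1.93 and 1.68 CPM in the iso-osmolar libraries, 1.93, 1.55 and 1.41 CPM at 500 mOsm and 2.93, 2.37 and 3.02 CPM at 600 mOsm, and its 600 mOsm libraries were above all others, with 0.57 ± 0.18 (SE, adjusted p = 0.0235) against iso-osmolar cells. That call was lost without iso-osmolar replicate 3 or 600 mOsm replicate 1 or 3 (values of 0.50 to 0.53), by DESeq2 (0.58) and with offsets for gene length (0.43). Hist1h2bg, with the octamer in its promoter, was at 0.637, 1.47 and 0.859 CPM in the iso-osmolar libraries, 1.19, 1.36 and 1.26 CPM at 500 mOsm and 3.18, 2.01 and 2.98 CPM at 600 mOsm. Its 600 mOsm libraries were above all others, and the log2 fold change against iso-osmolar cells was 1.45 ± 0.27 (SE, adjusted p = 0.00137).

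Hist2h2bb (chr3:96269721-96279001, plus strand, 1511 bases over its exons) had 0, 3 and 3 reads in the iso-osmolar libraries, 17, 20 and 21 at 500 mOsm and 24, 31 and 43 at 600 mOsm. Its treated libraries were all above its iso-osmolar ones. With each iso-osmolar library at or under the limit of 3 reads, its fold is given as a ratio of summed reads per library size: 8.86 at 500 mOsm (95% exact interval 3.83 to 25.1) and 15.8 at 600 mOsm (7.01 to 44.2), over 6 iso-osmolar reads and for counting error only. The adjusted p of edgeR's test was 0.000579 at 500 mOsm and 4.23e-05 at 600 mOsm. An M21 exon of an antisense gene covers 257 of its bases, and the counting is not stated to use strand, so reads of the 2 genes may be mixed. Hist1h2bl was the other H2B gene that rose at 500 mOsm, by 1.11 ± 0.38 (SE, adjusted p = 0.0435). Like Hist2h2bb, it passed the filter only with the help of treated libraries. In M21, exons of Hist1h1e cover 496 bases of Hist1h2be, so the values of Hist1h2be are uncertain.

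In class H3, which forms the core tetramer with H4, the most abundant gene rose little at 600 mOsm. Of the 10 tested, 2 were higher at 500 mOsm, 9 at 600 mOsm and 6 at 600 against 500 mOsm, and none was lower. In the same comparisons, the shares that rose over all genes were 13.2%, 15.1% and 11.9%. Iso-osmolar libraries all reached the filter's level for 8 of the 10. Within these 8, passes upward came to 0, 7 and 6 in that order. Hist1h3c (chr13:23745013-23745501, minus strand, 489 bases), the most abundant, was at 5.74, 6.64 and 6.83 CPM in the iso-osmolar libraries, 6.93, 5.54 and 6.18 CPM at 500 mOsm and 9.29, 8.33 and 7.39 CPM at 600 mOsm. Its 600 mOsm libraries were above all others, with a log2 fold change of 0.38 ± 0.13 (SE, adjusted p = 0.0352) against iso-osmolar cells and 0.42 ± 0.13 (SE, adjusted p = 0.0235) against 500 mOsm. The first call was lost with library sizes alone (0.36), without iso-osmolar replicate 1 or 2 or 600 mOsm replicate 1 or 2 (0.29 to 0.40), and with offsets for gene length (0.23). The second was lost without 500 mOsm replicate 2 or 3 or 600 mOsm replicate 1 (0.34 to 0.42).

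Hist1h3h was at 1.41, 1.88 and 1.31 CPM in the iso-osmolar libraries, 1.72, 2.34 and 1.83 CPM at 500 mOsm and 2.60, 2.73 and 2.67 CPM at 600 mOsm, and rose at 600 mOsm by 0.79 ± 0.19 (SE, adjusted p = 0.00624), a call lost with offsets for length and GC (0.43). Of the windows of Hist1h3h, 90.5% were found in other H3 genes, so its share of the reads is uncertain. Hist1h3e was at 1.14, 1.27 and 1.19 CPM in the iso-osmolar libraries, 1.60, 1.47 and 1.30 CPM at 500 mOsm and 3.10, 2.37 and 2.94 CPM at 600 mOsm, and rose by 1.22 ± 0.18 (SE, adjusted p = 0.000229). For Hist1h3g the values were 1.18, 1.52 and 1.23 CPM in the iso-osmolar libraries, 1.84, 1.62 and 1.37 CPM at 500 mOsm and 2.13, 2.55 and 1.74 CPM at 600 mOsm, with 0.70 ± 0.21 (SE, adjusted p = 0.0214), a call lost without iso-osmolar replicate 1 or 3 or 600 mOsm replicate 1 or 2 (0.56 to 0.70), by DESeq2 (0.71) and with offsets for gene length (0.55). In these 3 genes the 600 mOsm libraries were above every iso-osmolar library, and none of the 3 passed at 500 mOsm.

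Hist1h3b and Hist2h3c2 were the H3 genes higher at 500 mOsm, by 1.88 ± 0.43 (SE, adjusted p = 0.00545) and 1.97 ± 0.60 (SE, adjusted p = 0.0255). Both passed the filter only with the help of treated libraries, so their p-values against iso-osmolar cells are a description. Hist1h3b was at 0.546, 0.492 and 0.123 CPM in the iso-osmolar libraries, 1.11, 1.66 and 1.49 CPM at 500 mOsm and 1.72, 0.851 and 0.773 CPM at 600 mOsm. Its call at 600 mOsm against iso-osmolar, 1.53 ± 0.45 (SE, adjusted p = 0.0204), was lost without iso-osmolar replicate 3 (1.09) or 600 mOsm replicate 1 (1.07). It had a negative value for 600 against 500 mOsm, -0.35 ± 0.36 (SE, adjusted p = 0.505), which did not pass. Hist1h3d was the H3 gene that did not pass at 600 mOsm against iso-osmolar, at 0.44 ± 0.26 (SE, adjusted p = 0.221). The class summed to 15.2 ± 0.453 CPM in iso-osmolar cells, 17.6 ± 0.777 at 500 mOsm and 26.4 ± 0.967 at 600 mOsm (SD, n = 3).

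Class H4 repeated the division seen in H1, with 1 abundant gene that moved little and low genes that rose at 600 mOsm. Of the 11 tested, 1 was higher at 500 mOsm, 8 at 600 mOsm and 9 at 600 against 500 mOsm, and none was lower. In the same order, 13.2%, 15.1% and 11.9% of all genes tested were higher, and 14.8%, 20% and 17.2% lower. Only 7 of the 11 H4 genes were at the filter's level in all 3 iso-osmolar libraries. Of these 7, 1 was higher at 500 mOsm and 5 at 600 mOsm. Hist1h4i (chr13:22040636-22041362, minus strand, 727 bases) was at 29.9, 26 and 29.0 CPM in the iso-osmolar libraries, 26.2, 25.7 and 25.7 CPM at 500 mOsm and 31.4, 33.8 and 30.1 CPM at 600 mOsm. Its log2 fold change was -0.13 ± 0.074 (SE, adjusted p = 0.239) at 500 mOsm, 0.17 ± 0.073 (SE, adjusted p = 0.0958) at 600 mOsm and 0.29 ± 0.073 (SE, adjusted p = 0.00941) between the treatments. Iso-osmolar libraries lay between the treatments, overlapping the 500 mOsm ones, and of the 3 comparisons only 600 against 500 mOsm passed. With offsets for gene length Hist1h4i also passed as lower at 500 mOsm (-0.24), and with offsets for length and GC too (-0.29).

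Hist2h4 (chr3:96261682-96263311, minus strand, 1630 bases), which shared no window with another gene, was at 0.774, 0.492 and 0.572 CPM in the iso-osmolar libraries, 0.615, 0.716 and 0.877 CPM at 500 mOsm and 6.99, 8.28 and 8.08 CPM at 600 mOsm. The iso-osmolar and 500 mOsm libraries overlapped, and the 600 mOsm libraries were far above both. The log2 fold change was 0.28 ± 0.26 (SE, adjusted p = 0.507) at 500 mOsm, 3.67 ± 0.19 (SE, adjusted p = 3.55e-08) at 600 mOsm and 3.39 ± 0.18 (SE, adjusted p = 3.14e-08) for 600 against 500 mOsm. It had the smallest p of all histone genes in the last 2 comparisons.

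Hist1h4d was at 1.59, 1.97 and 1.64 CPM in the iso-osmolar libraries, 2.13, 2.26 and 1.45 CPM at 500 mOsm and 5.23, 5.15 and 7.39 CPM at 600 mOsm, and its change at 600 mOsm was 1.77 ± 0.20 (SE, adjusted p = 2.96e-05). Hist1h4a was at 0.501, 0.778 and 0.90 CPM in the iso-osmolar libraries, 1.39, 1.17 and 1.79 CPM at 500 mOsm and 3.60, 3.18 and 3.56 CPM at 600 mOsm, and was the H4 gene higher at 500 mOsm, by 0.98 ± 0.25 (SE, adjusted p = 0.0103), as well as at 600 mOsm, by 2.23 ± 0.23 (SE, adjusted p = 1.06e-05). The 600 mOsm libraries of both genes were above all others. Hist1h4f, which passed the filter only with the help of treated libraries, rose at 600 mOsm by 2.42 ± 0.31 (SE, adjusted p = 7.16e-05). Hist1h4m and Hist1h4n, which share 85.8% and 77.2% of their windows with each other, passed in no comparison. Without Hist1h4i the class summed to 7.10 ± 0.825 CPM in iso-osmolar cells, 9.05 ± 0.307 at 500 mOsm and 29.0 ± 2.50 at 600 mOsm (SD, n = 3). With it the sums were 35.4 ± 2.02, 35.0 ± 0.187 and 60.7 ± 2.10 CPM.

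**Figure D3:**
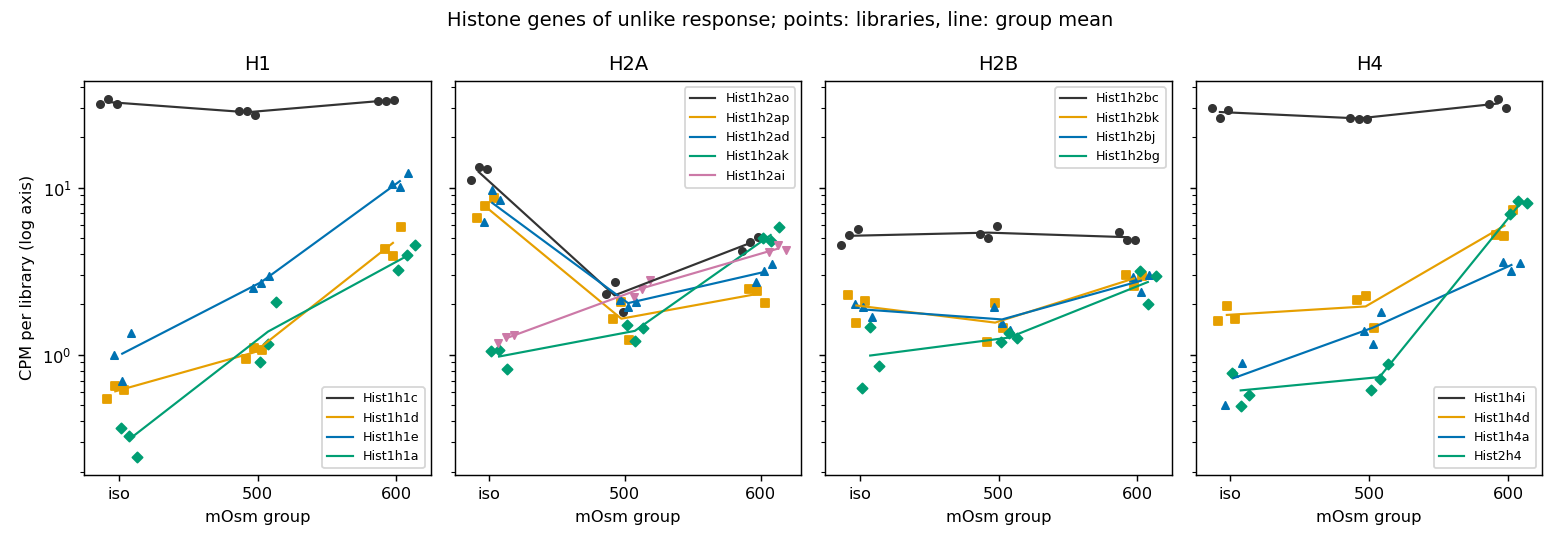
CPM in each library (points, log y axis) and group means (lines) of H1, H2A, H2B and H4 genes that moved differently, by treatment (x axis). Hist1h1c and Hist1h4i stay near 30 CPM while Hist1h1e and Hist2h4 rise to 10.0 to 12.3 and 6.99 to 8.28 CPM, and Hist1h2ao, Hist1h2ap and Hist1h2ad fall.

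By cluster, 5 genes of chromosome 3 were tested, of which 5 were higher at 600 mOsm and 2 at 500 mOsm. Only Hist2h4 of these was at the filter's level in all 3 iso-osmolar libraries, and the other 4 passed through treated libraries, so that count is a description. The 10 chromosome 3 genes summed to 1.66 ± 0.235 CPM in iso-osmolar cells, 3.40 ± 0.468 at 500 mOsm and 13.5 ± 1.04 at 600 mOsm (SD, n = 3). Hist2h4 alone gave 7.79 ± 0.696 CPM of the 600 mOsm sum. On chromosome 13, 35 of 49 tested genes were higher and 3 lower at 600 mOsm, with a median of 1.11. The background for this comparison over all genes was 15.1% up and 20% down. Some of the 49, among them Hist1h1a and Hist1h4f, also passed the filter only through treated libraries. The chromosome 13 counts, in full and by group, are therefore a description too. The 2 genes of chromosome 11 had 1 to 12 reads per library together and were not tested. The difference between clusters was not tested. Most chromosome 13 genes lie in 2 groups, a proximal one of 21 tested genes with 13 higher and 2 lower at 600 mOsm, and a distal one of 27 with 21 higher and 1 lower. Hist1h2al lies apart from both.

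Levels of different genes are set in order here as FPKM, which the authors divided by gene length. In iso-osmolar cells the tested histone genes ranged from 0.0543 to 39.1 FPKM with a median of 1.69, and 4 genes held 46.8% of the summed FPKM. Hist1h4i was highest at 39.1 ± 3.19 FPKM (SD, n = 3), followed by Hist1h2ao at 26 ± 2.21, Hist1h1c at 20.9 ± 0.573 and Hist1h2ad at 17.5 ± 3.64. Hist1h1c and Hist1h2ad did not differ beyond their spread, while Hist1h4i lay outside the spread of Hist1h2ao. At 600 mOsm the median was 4.72 FPKM, 23 genes were above 5 FPKM against 8 in iso-osmolar cells, and the 4 highest held 29.0%.

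At 600 mOsm Hist1h4i was at 43.4 ± 3.42, Hist1h1c at 21.1 ± 0.334, Hist1h3c at 16.9 ± 2.07 and Hist1h4d at 14.9 ± 2.93 FPKM. Hist1h1e moved from 1.37 ± 0.449 to 14.5 ± 1.34 FPKM and stood next in order, within the spread of Hist1h4d. At 500 mOsm the median was 2.25 FPKM, and Hist1h2ao and Hist1h2ad had dropped to 4.73 ± 0.916 and 4.41 ± 0.261 FPKM. Of the 54 genes, 35 were above 1 FPKM in iso-osmolar cells, 44 at 500 mOsm and 50 at 600 mOsm.

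**Figure D4:**
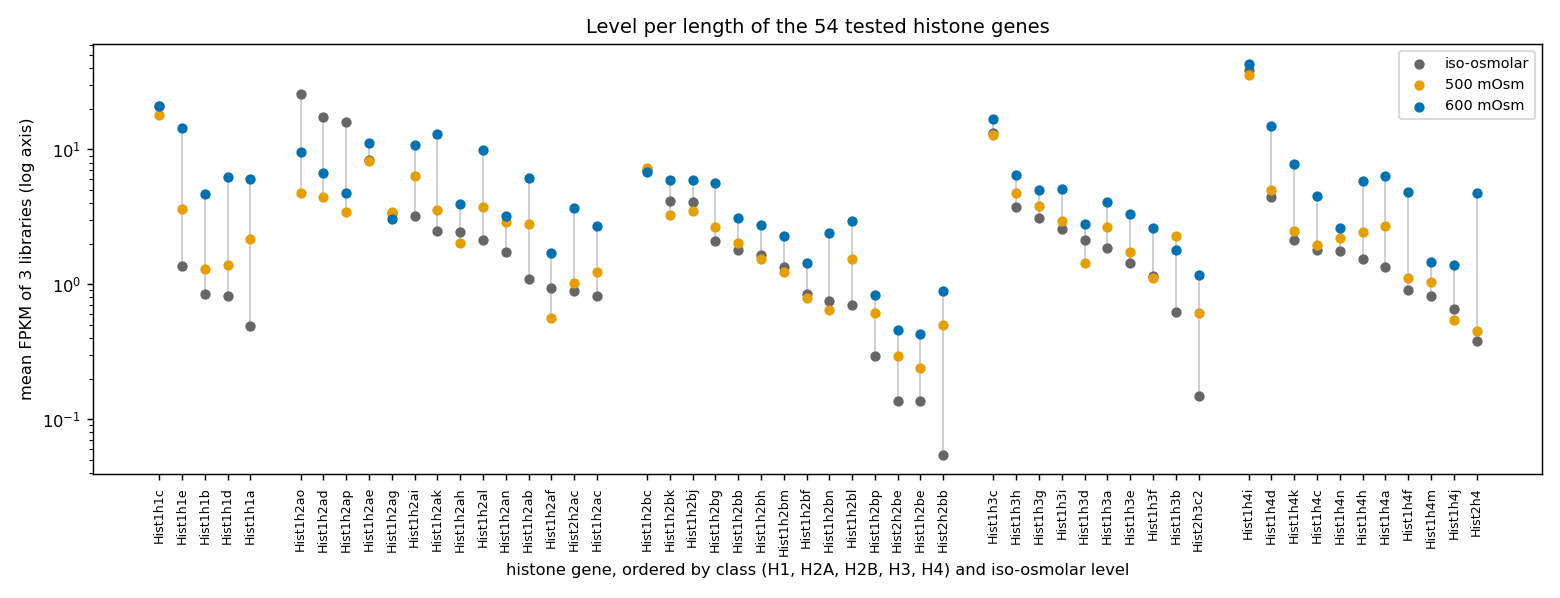
Mean FPKM of 3 libraries (log y axis) of the 54 tested histone genes (x axis, by class and then iso-osmolar level) in each treatment (colour), with a grey line over the range of the 3 means. The highest iso-osmolar genes change little or, for 3 H2A genes, fall, and the median goes from 1.69 to 4.72 FPKM at 600 mOsm.

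Sequence shared between copies was measured as the share of 150-base windows of each gene model found in an M21 transcript of another gene. Of the 67 genes, 52 had at least 1 shared window, and 12 of the tested genes had none. Among those 12, 10 were higher and none lower at 600 mOsm, with a median log2 fold change of 2.32. Among the 26 with under 50% of their windows shared, 22 were higher and none lower, at a median of 1.22. Among the 16 with 50% or more, 8 were higher and 3 lower, at a median of 0.83. Over all genes tested, 15.1% were higher and 20% lower at 600 mOsm. The 16 include Hist1h3h (90.5%), Hist1h2ag (65.5%), Hist1h2bk (60.9%), Hist2h3c2 (59.4%) and Hist1h2bg (55.8%), whose split of reads between copies is uncertain too. The part of shared sequence in these values was not tested.

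The end of the gene model was set beside the stem-loop, since only reads inside the model were counted. The distance from the stem-loop to the end of the deposited model was taken on the genome, introns included. Of 38 tested genes with a stem-loop, it was over 100 bases in 10 and 0 to 100 bases in 25. In 3 the model ended before the stem-loop. For Hist1h2bp the distance was 1275 bases, although its whole model holds 621 bases and its M21 transcript ends 38 bases past the stem-loop. At 600 mOsm, 8 of the 10 genes over 100 bases were higher at a median of 1.34. Of the 25 genes at 0 to 100 bases, 16 were higher and 3 lower at a median of 0.87. Beside these and the counts that follow, 15.1% of all genes tested were higher and 20% lower at 600 mOsm. Hist1h1c and Hist1h4i, which moved little, had models of 840 and 330 bases past the stem-loop, and Hist2h4, which rose most in H4, had 1257 bases. Hist1h1e had 27 bases. Genes with models of 1000 bases or more, 6 tested, had 5 higher at 600 mOsm, and those under 1000 bases, 48 tested, had 35 higher and 3 lower. Among the H2A and H2B genes with a promoter, 8 of 10 with the octamer were higher at 600 mOsm and none lower, and 9 of 15 without it were higher and 3 lower. Where the windows of an H2A and an H2B gene overlap, an octamer counts for both, so these are not counts of separate octamers.

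**Figure D5:**
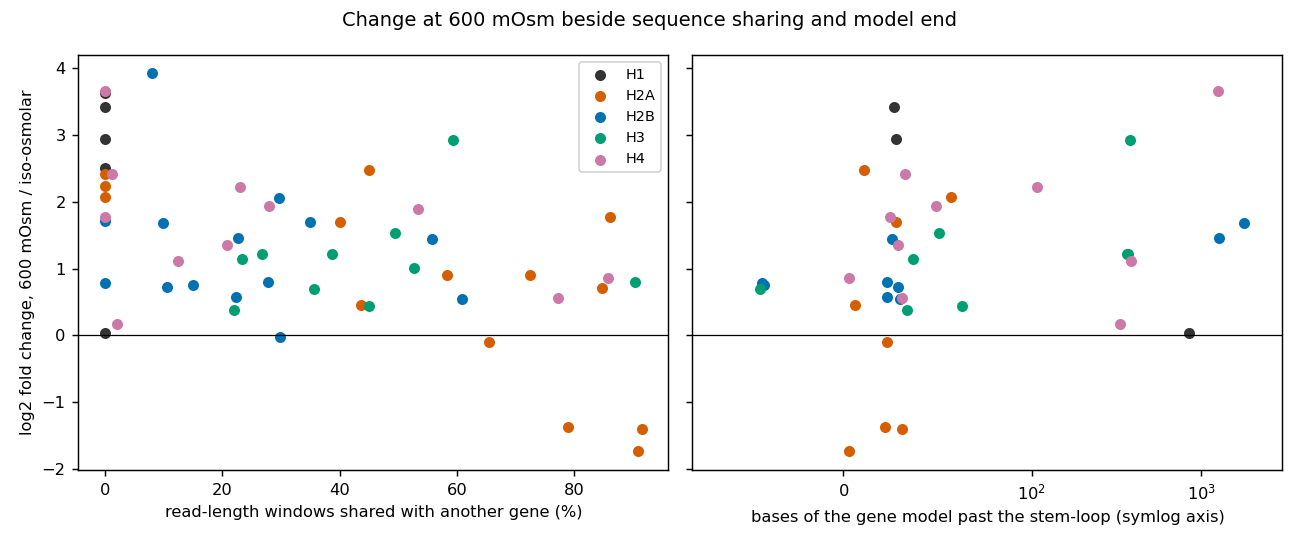
Log2 fold change of the tested histone genes at 600 mOsm against iso-osmolar (y axis), coloured by class. The left x axis is the share of 150-base windows found in another gene. The right x axis is the genomic distance, introns included, from the stem-loop to the end of the gene model. It is linear within 100 bases of 0 and logarithmic beyond. The 3 H2A genes that fell share 79.0% to 91.5% of their windows and end 3 to 31 bases past the stem-loop.

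The 13 genes without a test had few or no reads. Hist1h4b, Hist2h2ab, Hist2h2aa1, Hist2h2aa2, Hist2h3c1 and Hist2h3b were at 0 in all 9 libraries, and each of these 6 overlaps an M21 exon of another gene of the table, 5 of them an antisense one. In 4 of the 6 every window was shared. Of the 54 tested genes, 2 overlap such an exon. The other 7 had at most 11 reads in any library, and they include Hist1h2aa, Hist1h2ba and Hist1h1t, which are forms known from testis. A gene at 0 reads in a library could have been present at up to 0.137 CPM by the limit of 3 reads, and for these 6 the counting of overlapping genes sets a further limit.

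Genes that process or transcribe histone mRNA were read beside the histone genes. SLBP, the stem-loop binding protein, is made by Slbp, at 60.1 ± 3.78 CPM in iso-osmolar cells, 58.8 ± 3.21 at 500 mOsm and 68.2 ± 5.18 at 600 mOsm (SD, n = 3). The log2 fold change of Slbp was 0.18 ± 0.07 (SE, adjusted p = 0.0608) at 600 mOsm and 0.21 ± 0.07 (SE, adjusted p = 0.0383) for 600 against 500 mOsm. Of 19 genes of histone RNA processing, all tested, 2 were higher and 3 lower at 600 mOsm, 1 higher and 3 lower at 500 mOsm, and 5 higher and 2 lower between the treatments. The shares over all genes tested, against which this list and those that follow are set, were 15.1% higher and 20% lower at 600 mOsm, 13.2% and 14.8% at 500 mOsm, and 11.9% and 17.2% between the treatments. Lsm10, a protein of the U7 particle that cuts histone RNA, was lower at 500 mOsm, at -0.42 ± 0.10 (SE, adjusted p = 0.0075), and higher at 600 than at 500 mOsm by 0.47 ± 0.10 (SE, adjusted p = 0.00394). Mif4gd, an SLBP partner in translation, was higher at 600 mOsm by 0.34 ± 0.074 (SE, adjusted p = 0.00362), and the cleavage factor gene Cpsf2 was lower, at -0.32 ± 0.076 (SE, adjusted p = 0.0062).

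Of 9 genes of histone transcription, 8 were tested, with 5 lower and none higher at 500 mOsm, 4 lower and none higher at 600 mOsm, and 3 higher and 1 lower between the treatments, beside 14.8% lower at 500 mOsm and 20% lower at 600 mOsm over all genes. Npat, the coactivator of histone transcription that cyclin E and Cdk2 phosphorylate, was at 9.17 ± 3.28 CPM in iso-osmolar cells, 4.88 ± 0.799 at 500 mOsm and 9.87 ± 2.08 at 600 mOsm. Npat changed by -0.92 ± 0.23 (SE, adjusted p = 0.0103) at 500 mOsm, 0.10 ± 0.22 (SE, adjusted p = 0.765) at 600 mOsm and 1.01 ± 0.23 (SE, adjusted p = 0.00577) between them. Ccne1, a cyclin E gene, was lower, at -1.08 ± 0.064 (SE, adjusted p = 8.89e-08) at 500 mOsm and -0.44 ± 0.063 (SE, adjusted p = 0.000189) at 600 mOsm. Yy1, a factor that binds histone genes among many others, was lower at 600 mOsm, at -0.60 ± 0.057 (SE, adjusted p = 5.96e-06).

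The replacement variants, mostly histone genes that are expressed outside S phase and carry a poly(A) tail, had a median near 0. Of 11 tested, 1 was higher and 2 lower at 500 mOsm, 4 higher and 1 lower at 600 mOsm, and 1 higher and 1 lower between the treatments, with a median log2 fold change of 0.067 at 600 mOsm. Over all genes 13.2% were higher and 14.8% lower at 500 mOsm, and 15.1% and 20% at 600 mOsm, so 3 called of 11 at 500 mOsm is near the background. H1f0, the linker histone of resting cells, rose by 0.26 ± 0.063 (SE, adjusted p = 0.00718) at 500 mOsm and 0.28 ± 0.064 (SE, adjusted p = 0.00421) at 600 mOsm. H3f3b, a gene of H3.3, fell at both, and its value at 600 mOsm was -0.17 ± 0.044 (SE, adjusted p = 0.0102). H2afx, which is phosphorylated at DNA breaks, was lower at 500 mOsm, at -0.41 ± 0.09 (SE, adjusted p = 0.00397), and stood at -0.013 ± 0.089 (SE, adjusted p = 0.925) at 600 mOsm.

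Of 21 histone chaperones, all tested, 1 was higher and 1 lower at 500 mOsm, 2 higher and 2 lower at 600 mOsm, and 2 higher and 3 lower between the treatments, at a median of 0.032 at 600 mOsm. These counts are below the shares over all genes (13.2% higher and 14.8% lower at 500 mOsm, 15.1% and 20% at 600 mOsm). Asf1b, which hands H3 and H4 to new DNA, was higher at 600 mOsm by 0.25 ± 0.052 (SE, adjusted p = 0.00289), and Anp32e, a chaperone of H2A.Z, was lower, at -0.24 ± 0.061 (SE, adjusted p = 0.0101). Ubn1, of the H3.3 complex, was higher at 500 mOsm by 0.23 ± 0.047 (SE, adjusted p = 0.00258). Of 31 DNA replication genes, all tested, none was higher and 2 lower at 500 mOsm, 6 higher and 1 lower at 600 mOsm, and 9 higher and 1 lower between the treatments, at a median of 0.089 at 600 mOsm. Over all genes 15.1% were higher at 600 mOsm and 11.9% between the treatments. Tk1, a thymidine kinase, and Cdt1, a licensing factor, were higher at 600 mOsm by 0.35 ± 0.05 (SE, adjusted p = 0.000153) and 0.27 ± 0.052 (SE, adjusted p = 0.00176). Rrm2, a ribonucleotide reductase subunit, was lower, at -0.24 ± 0.05 (SE, adjusted p = 0.00259), and Gins3, of the replicative helicase, was lower at 500 mOsm, at -0.57 ± 0.12 (SE, adjusted p = 0.00378). The largest value past the test in this list at 600 mOsm was that of Tk1.

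As a check on RNA without a tail, 17 small non-polyadenylated RNAs were listed, of which 1, Rnu11, was in the table. It had too few reads for a test, and the others were not analysed here. The histone gene Hist4h4 on chromosome 6, outside the clusters and so not among the 67, was at 1.37, 1.23 and 1.43 CPM in the iso-osmolar libraries, 0.984, 1.28 and 0.877 CPM at 500 mOsm and 1.47, 2.19 and 1.55 CPM at 600 mOsm. Its log2 fold change was 0.36 ± 0.22 (SE, adjusted p = 0.229) at 600 mOsm and 0.72 ± 0.23 (SE, adjusted p = 0.0323) for 600 against 500 mOsm.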

How the data were processed

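RNA from mouse embryonic fibroblasts was bound to poly-T beads, and 3 libraries were sequenced for each of the 3 treatments. The authors deposited whole-number read counts per gene and FPKM per gene, which they scaled by gene length and library. According to the submitters' notes and the study's methods, reads were called with CASAVA 1.8, cleaned of adapters and low-quality reads, and aligned to mm10 with STAR, and the counting tool, its use of strand and its treatment of reads that fit several genes are not given in the sources used here. The table also holds the authors' own group means and comparisons (fold changes and p-values), which were not used. Groups came from the sample labels.

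Counts were tested with edgeR 4.0.16 (limma 3.58.1, R 4.3.3), with TMM scaling, filterByExpr, 1 mean per treatment over all 9 libraries, the quasi-likelihood F test and Benjamini-Hochberg adjustment over 13082 genes at 0.05. The SE is the log2 fold change divided by the square root of F. CPM used TMM-scaled library sizes, and the libraries held 21716042 to 26740832 counts. Intervals and the floor of 3 counts cover counting error only, since reads carry no molecular identifiers. FPKM was used as deposited. Means carry the SD. The test was checked on simulated counts. DESeq2 1.42.0, other scalings, filters, offsets for gene length and GC, and leaving out each library were alternatives. Figures used Python 3.11.15 and matplotlib 3.10.9.

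The histone genes and the other gene lists were chosen with earlier results of these data known. Full values are given for up to 4 tested genes per class with the highest mean CPM and for the 3 that rose and the 3 that fell at the lowest p values of a comparison, and in the other lists for Slbp, Npat and up to 2 genes per direction with the smallest p. Other genes named were chosen after their values were seen. Stem-loops came from GENCODE M21 transcripts (GRCm38) and promoters from RefSeq (GRCm38.p6). Of the 67 genes, 65 matched M21 by gene ID and 2 by symbol and position.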

Additional observations from a re-analysis of the deposited data

How the results depend on the processing

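The histone genes were few in reads, so calls of single genes near the threshold depend on 1 library. Requiring at least 10 counts in every library left 34 histone genes of 11437 genes and removes genes low in iso-osmolar cells by construction: 5 were then higher at 500 mOsm and 24 at 600 mOsm, with medians of 0.19 (500 mOsm) and 0.80 (600 mOsm) against iso-osmolar and 0.81 for 600 against 500 mOsm. With no filter the median at 600 mOsm was 1.36. With offsets for gene length the medians were 0.15 and 1.11, and with offsets for length and GC 0.041 and 1.14, at 500 and 600 mOsm. The other 52 of 54 counts outside the left-out libraries stayed within 1.5 times; DESeq2 gave 8, 33 and 34 higher and 4, 3 and 0 lower at 500 mOsm, 600 mOsm and 600 against 500 mOsm. The cause of these shifts was not tested.

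Leaving out each library in turn gave 7 to 11 higher at 500 mOsm, 32 to 42 at 600 mOsm and 30 to 42 for 600 against 500 mOsm, with medians of 0.21 to 0.32, 1.16 to 1.33 and 0.90 to 0.99. Lower counts were 3 to 5, 3 and 0.

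Signs turned only for small values. At 500 mOsm, Hist1h2bc was at -0.055 and Hist1h2ag at -0.095 with length offsets, and Hist1h2ag at -0.26 with length and GC offsets. At 600 mOsm, Hist1h1c was at -0.036 with length offsets and -0.083 with both. Over left-out libraries Hist1h2bc ran from -0.017 to 0.14 at 500 mOsm and -0.11 to 0.048 at 600 mOsm, Hist1h2ae from -0.073 to 0.076 and Hist1h3c from -0.13 to 0.020 at 500 mOsm. Hist1h2ag ran from -0.18 to 0.27 at 500 mOsm, -0.37 to 0.023 at 600 mOsm and -0.41 to 0.077 for 600 against 500 mOsm. Of the other values of named genes outside the left-out libraries, 633 kept direction and call, 19 lost the call and 9 gained it.

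Class sums as ratios to iso-osmolar moved with the scale and with 1 gene. In FPKM the H1 ratio was 1.09 at 500 mOsm and 2.15 at 600 mOsm, and the H3 ratio 1.64 at 600 mOsm. Without Hist1h1c the H1 ratio was 2.39 at 500 mOsm and 9.04 at 600 mOsm. Without Hist1h2ao the H2A ratio was 0.690 and 1.27, without Hist1h3c the H3 ratio was 1.30 and 2.06, and without Hist1h4i the H4 ratio was 1.28 and 4.08. Without Hist1h2bc the H2B ratio was 2.15 at 600 mOsm.

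The labels give each treatment replicates numbered 1 to 3. Libraries with the same number did not deviate together, at a mean correlation of -0.17 over 9 pairs (from -0.45 to 0.31) across 11179 genes. The mean over the other 18 pairs was 0.086. Deviations from means of 3 libraries cannot settle whether libraries of the same number were handled together. With the replicate number as a block, 9 were higher and 3 lower at 500 mOsm, 37 and 3 at 600 mOsm, and 34 and 0 for 600 against 500 mOsm. The block ended the calls of Hist1h1c at 500 mOsm (adjusted p = 0.0617 by edgeR) and of Hist1h3c at 600 mOsm against iso-osmolar (0.07) and against 500 mOsm (0.0512), and no other call among the genes given in full.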
